A study of Mus musculus with 18 samples.

Results

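The genes described here are *Fmr1*, which encodes FMRP, its paralogs *Fxr1* and *Fxr2*, and 7 genes for proteins that bind FMRP or travel in the same granules, namely *Cyfip1*, *Cyfip2*, *Nufip1*, *Nufip2*, *Caprin1*, *G3bp1* and *G3bp2*. They were chosen by symbol, and each matched 1 identifier of the count table, which makes 10 of 55414 genes. The RNA came from N2A (Neuro-2a) cells, a mouse neuroblastoma line, harvested 72 h after siRNA transfection. Control cells received 1 of 2 Scramble siRNAs (Scramble KD), and the others received 1 of 2 siRNAs against *Fmr1* (*Fmr1* KD) or 1 of 2 against *Zfp598* (*Zfp598* KD), the gene of a ubiquitin ligase that recognises collided ribosomes. Each siRNA, called A or B within its condition, was used in 3 knockdowns of the same cell line, so there were 6 groups of 3 and 18 libraries of RNA depleted of rRNA. The replicates are separate transfections of a single tumour line, and the p-values for a single siRNA measure the spread between those transfections. Where both siRNAs of a condition are pooled, the p-values also take in the difference between them and count the 6 libraries as independent. An siRNA lowers a transcript without removing the gene, and the letters do not pair a targeting siRNA with a Scramble siRNA beyond the shared name.

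FMRP is an RNA-binding protein that associates with translating ribosomes and represses translation of many neuronal mRNAs, and its loss causes fragile X syndrome. FXR1 and FXR2 are built from the same RNA-binding domains and can form complexes with FMRP. CYFIP1 and CYFIP2 link FMRP to the WAVE regulatory complex, which drives branched actin assembly when the GTPase RAC1 is active. NUFIP1 helps to assemble box C/D snoRNPs, NUFIP2 is an RNA-binding protein of cytoplasmic granules, and CAPRIN1 with G3BP1 or G3BP2 forms the core that nucleates stress granules.

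On GRCm39 the annotation places *Fmr1* (ENSMUSG00000000838) at chrX:67722124-67761578 on the plus strand, *Fxr1* (ENSMUSG00000027680) at chr3:34074019-34124803 on the plus strand and *Fxr2* (ENSMUSG00000018765) at chr11:69523754-69544123 on the plus strand. The CYFIP genes are *Cyfip1* (ENSMUSG00000030447) at chr7:55491479-55582381 on the plus strand and *Cyfip2* (ENSMUSG00000020340) at chr11:46084550-46203686 on the minus strand. The NUFIP genes are *Nufip1* (ENSMUSG00000022009) at chr14:76348317-76375070 on the plus strand and *Nufip2* (ENSMUSG00000037857) at chr11:77576553-77632747 on the plus strand. The stress granule core genes are *Caprin1* (ENSMUSG00000027184) at chr2:103592979-103628010 on the minus strand, *G3bp1* (ENSMUSG00000018583) at chr11:55360166-55395670 on the plus strand and *G3bp2* (ENSMUSG00000029405) at chr5:92199674-92231728 on the minus strand. All 10 are annotated as protein coding, and the counts cover their exons.

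Because the members fall into families, the coding sequences show first how far the relatives differ. The 60-base coding windows below, each within a single exon of the GENCODE M39 canonical transcript on GRCm39, are the most alike ungapped stretches of each family. They are written 5′ to 3′ on the coding strand, and capitals mark bases that differ from the first gene of the family. The FMRP family windows lie in exon 5 at chrX:67739095-67739154 (plus strand, *Fmr1*), chr3:34100586-34100645 (plus strand, *Fxr1*) and chr11:69532267-69532326 (plus strand, *Fxr2*).
Fmr1: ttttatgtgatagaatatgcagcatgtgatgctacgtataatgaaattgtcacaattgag
Fxr1: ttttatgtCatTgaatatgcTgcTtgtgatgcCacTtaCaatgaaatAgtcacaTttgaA
Fxr2: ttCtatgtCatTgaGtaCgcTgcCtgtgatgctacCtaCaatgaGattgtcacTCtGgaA

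The CYFIP windows lie in exon 17 at chr7:55549671-55549730 (plus strand, *Cyfip1*) and chr11:46145426-46145485 (minus strand, *Cyfip2*).
Cyfip1: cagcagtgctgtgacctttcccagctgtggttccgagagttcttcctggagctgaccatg
Cyfip2: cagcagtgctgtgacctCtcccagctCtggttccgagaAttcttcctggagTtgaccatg

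The G3BP windows open the coding sequence, in exon 2, at chr11:55376470-55376529 (plus strand, *G3bp1*) and chr5:92221054-92221113 (minus strand, *G3bp2*).
G3bp1: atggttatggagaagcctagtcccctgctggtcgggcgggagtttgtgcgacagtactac
G3bp2: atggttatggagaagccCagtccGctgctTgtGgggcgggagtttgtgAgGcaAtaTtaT

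Even in these windows *Fxr1* differed from *Fmr1* at 10 of 60 bases, *Fxr2* from *Fmr1* at 14, *Cyfip2* from *Cyfip1* at 4 and *G3bp2* from *G3bp1* at 9. The longest identical stretch of coding sequence was 14 bases between *Fmr1* and either paralog, 20 bases between *Fxr1* and *Fxr2*, 24 bases between *Cyfip1* and *Cyfip2*, and 17 bases between *G3bp1* and *G3bp2*. No 50-base stretch was shared between the canonical transcripts of any of these pairs. Over the aligned coding sequence the identity to *Fmr1* was 62.0% for *Fxr1* and 58.0% for *Fxr2*, and it was 77.8% within the CYFIP pair and 68.2% within the G3BP pair. Copies outside the members exist for *G3bp1*, where 11.6% of the 50-base stretches of the canonical transcript occurred also in transcripts of other genes, most often in *Gm5913*, a transcribed processed pseudogene that was chosen for mention after its values were seen. *Gm5913* itself had between 0.265 and 1.42 CPM, against at least 332.7 CPM for *G3bp1*. For the other members the shared part was at most 1.04%.

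Levels are given as counts scaled to the TMM library size (CPM), and levels of different genes are compared only as RPKM, that is CPM per kilobase of the union of a gene's exons. Total counts per library ranged from 7674724 to 15414590, and the members had between 79 counts (*Nufip1*) and 8420 counts (*Caprin1*) in a library. In 4 libraries the most counted feature of the table, which has no entry in the annotation used here, took more than 8% of all counts. These were *Zfp598* KD siRNA A replicates 2 (15.2%) and 3 (25.8%) and Scramble KD siRNA A replicates 1 (11.1%) and 3 (8.83%), against a median of 5.62% in Scramble KD. The library of *Fmr1* KD siRNA B replicate 1 also stood apart, since it held 102 counts of *Zfp42*, 34 of *Pou5f1* and 25 of *Sox2*, pluripotency genes that had at most 1 count in each of the other 17. Of 11 listed pluripotency genes with counts, 9 were highest in that library, and *Klf4* and *Lin28a* were not. Summed CPM of 18 neuroblastoma and sympathoadrenal markers was between 1583 and 2550 over the 18 libraries, while its members *Nefl* and *Nefm* each had at most 20 counts summed over all libraries. Summed markers of fibroblasts, glia, macrophages and epithelium stayed at or below 41.2, 34.9, 3.36 and 10.1 CPM. The targeted transcripts were low where the labels say so, with *Zfp598* at 41.1 ± 5.401 CPM in *Zfp598* KD and 118 ± 9.49 CPM in Scramble KD (SD, n = 6 each), a fall of 1.53 on the log2 scale (edgeR, adjusted p = 1.17e-08).

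On the RPKM scale *Caprin1* stood highest in Scramble KD with 39.7 ± 6.97 RPKM (SD, n = 6), followed by *G3bp1* with 36.8 ± 3.09, *Nufip2* with 27.2 ± 3.66 and *Fxr1* with 25.4 ± 3.98. *Fxr2* (17.2 ± 1.23 RPKM) and *G3bp2* (14.7 ± 1.10 RPKM) came next, then *Cyfip1* (7.34 ± 0.277 RPKM), *Fmr1* (6.57 ± 0.711 RPKM) and *Cyfip2* (5.12 ± 0.379 RPKM), with *Nufip1* lowest at 2.61 ± 0.186 RPKM. The ranges over the 6 libraries overlapped between *Caprin1* and *G3bp1*, between *Nufip2* and *Fxr1*, between *Fxr2* and *G3bp2*, between *Cyfip1* and *Fmr1* and between *Fmr1* and *Cyfip2*, so the order within those pairs is not beyond the spread. The lowest library of *Caprin1* (30.2 RPKM) also lay below the highest of *Nufip2* (31.2 RPKM) and of *Fxr1* (31.4 RPKM). With the length of the canonical transcript instead, *Fxr1* moved next to *Caprin1* and *G3bp2* above *Fxr2*, and the lowest 4 genes kept their order.

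**Figure D1:**
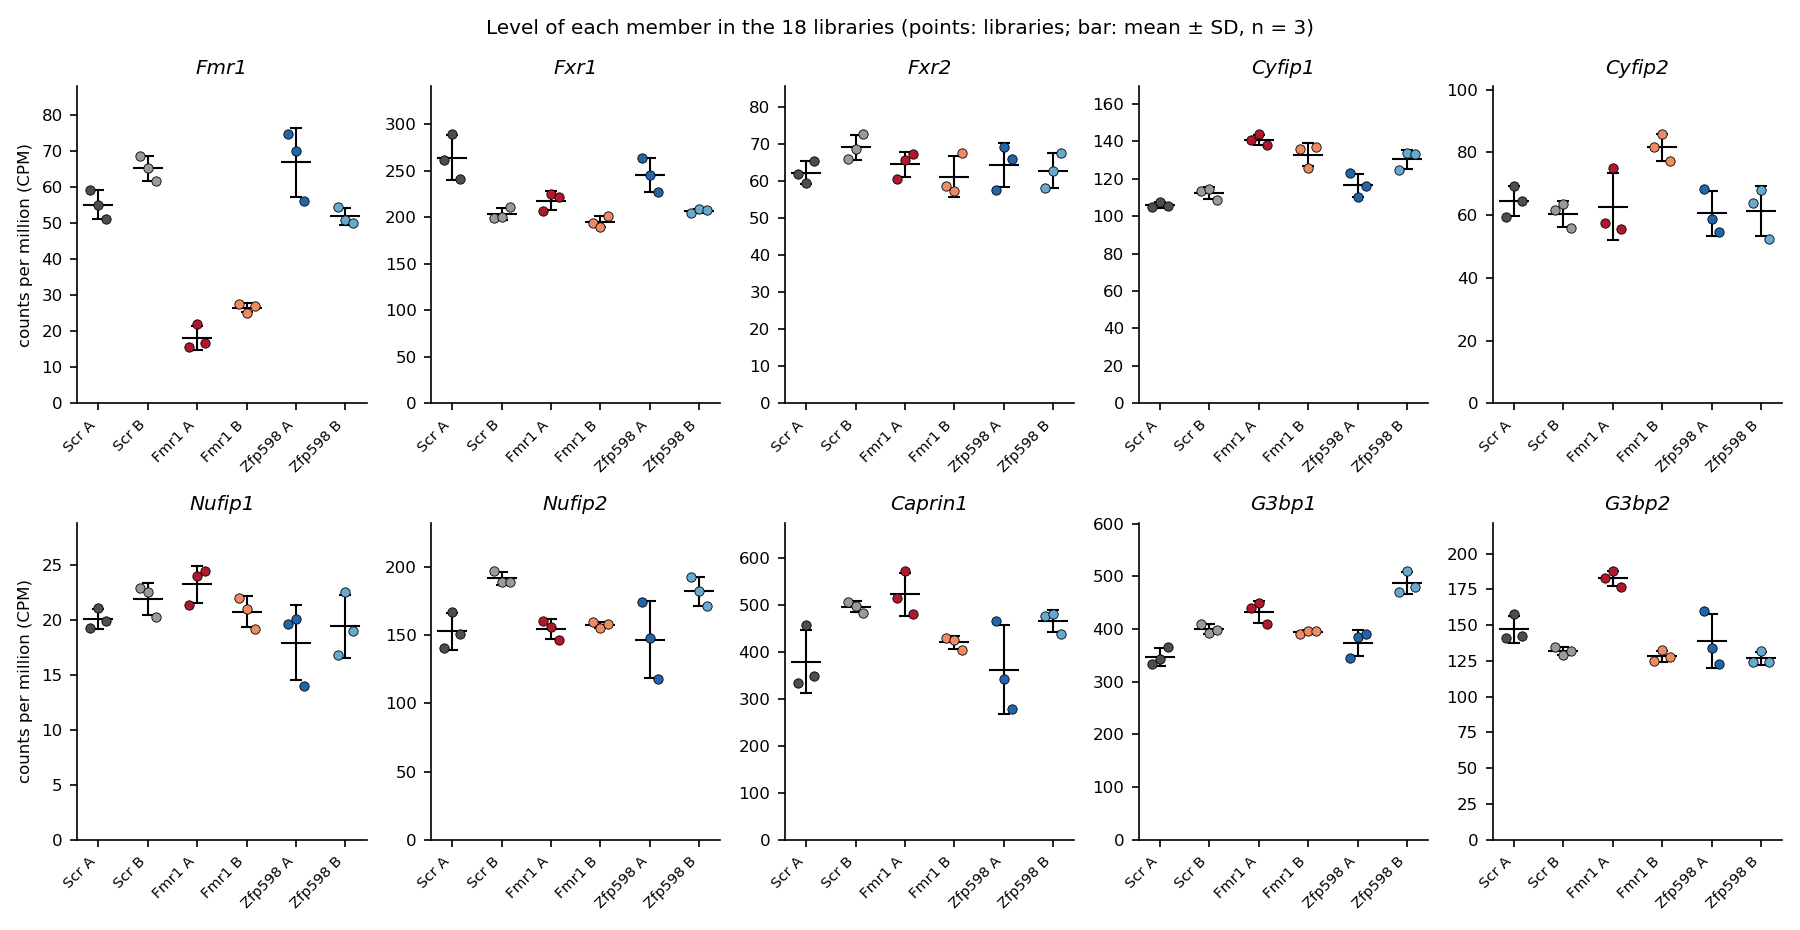
Level of each member in CPM (vertical axes, from 0) in the 6 siRNA groups (horizontal axes; Scr is Scramble KD), where points are libraries and bars are the mean ± SD of 3. *Fmr1* lay between 15.7 and 27.5 CPM in the 6 *Fmr1* KD libraries against 51.1 to 68.7 CPM in Scramble KD, and *Cyfip1* was higher in all 6 *Fmr1* KD libraries than in any Scramble KD library.

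The comparison of *Fmr1* KD with Scramble KD, 6 libraries against 6, asks which members change when FMRP is depleted. A call is an adjusted p under 0.05 in edgeR (quasi-likelihood test, Benjamini-Hochberg adjusted over 17901 genes), and 6.54% of those genes were called in this comparison. Among the 10 members 2 passed, the target *Fmr1* and *Cyfip1*. *Fmr1* also changed over 2-fold, which 1.00% of all genes did. The other 8 members did not pass, and the median log2 fold change of the 10 was 0.09 beside 0.00 over all genes.

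*Fmr1* was measured at 59.3, 54.9 and 51.1 CPM in the Scramble siRNA A libraries and at 68.7, 65.4 and 61.8 CPM with Scramble siRNA B. With *Fmr1* siRNA A it was 15.7, 22.0 and 16.8 CPM, and with *Fmr1* siRNA B it was 27.5, 25.1 and 27.0 CPM. All 6 knockdown libraries lay below all 6 controls, and every library of siRNA A lay below every library of siRNA B. The transcript fell by 1.43 on the log2 scale over both siRNAs (SE 0.145, adjusted p = 1.27e-05), a change of -62.8% (95% interval -69.8% to -54.2%). Taken by siRNA against the Scramble siRNA of the same letter, 6 of the 10 members passed with *Fmr1* siRNA A, where 23.6% of all genes were called, and 3 with siRNA B, where 22.7% were called. The fall of *Fmr1* was 1.60 for siRNA A (adjusted p = 1.57e-08) and 1.30 for siRNA B (adjusted p = 1.31e-07), and the test of the difference between them gave 0.30 (95% interval -0.04 to 0.65, adjusted p = 0.220). Without *Fmr1* KD siRNA A replicate 2 this difference was 0.47 and passed (adjusted p = 0.0432).

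Neither paralog passed in the pooled comparison. *Fxr2* ranged from 57.3 to 67.5 CPM in *Fmr1* KD and from 59.4 to 72.6 CPM in Scramble KD, and the ranges overlapped. Its change was -4.35% (95% interval -15.0% to 7.61%, adjusted p = 0.709). *Fxr1* ranged from 189.7 to 225.3 CPM in *Fmr1* KD and from 199 to 288.9 CPM in Scramble KD, and its change was -11.7% (95% interval -23.6% to 2.03%, adjusted p = 0.312).

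The wide range of *Fxr1* in the controls came from a difference between the Scramble siRNAs. It was 262, 289 and 241 CPM with Scramble siRNA A and 199, 200.2 and 211 CPM with Scramble siRNA B, with no overlap, a fall of 0.38 from A to B on the log2 scale (adjusted p = 0.00143). Between the Scramble siRNAs 4 of the 10 members were called, and 22.7% of all genes. *Fmr1* siRNA A gave 207, 225.3 and 221 CPM of *Fxr1*, below all Scramble siRNA A libraries but within or above those of Scramble siRNA B. The fall of 0.28 against Scramble siRNA A passed (adjusted p = 0.0123) and the change of -0.06 with *Fmr1* siRNA B against Scramble siRNA B did not (adjusted p = 0.619). Without *Fmr1* KD siRNA A replicate 1 or without Scramble KD siRNA A replicate 2 the call for siRNA A was lost, with adjusted p = 0.0707 and 0.0689.

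Expressed as RPKM, *Fmr1* made up 13.5% ± 1.996 of the summed level of the 3 family members in Scramble KD (SD, n = 6) and 5.95% ± 1.501 in *Fmr1* KD. The share was 4.65% ± 0.695 with siRNA A and 7.24% ± 0.351 with siRNA B (SD, n = 3 each), and 13.5% ± 1.42 in *Zfp598* KD (n = 6). The summed family level was 49.1 ± 2.50 RPKM in Scramble KD and 41.3 ± 2.35 RPKM in *Fmr1* KD, with ranges of 46.4 to 52.9 and 38.3 to 44.0 RPKM that did not overlap. In *Zfp598* KD the sum was 47.7 ± 3.81 RPKM, and its siRNA B libraries, at 43.3 to 45.6 RPKM, also lay below every Scramble KD library. *Fxr1* and *Fxr2* made up the rest of the sum in every group.

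**Figure D2:**
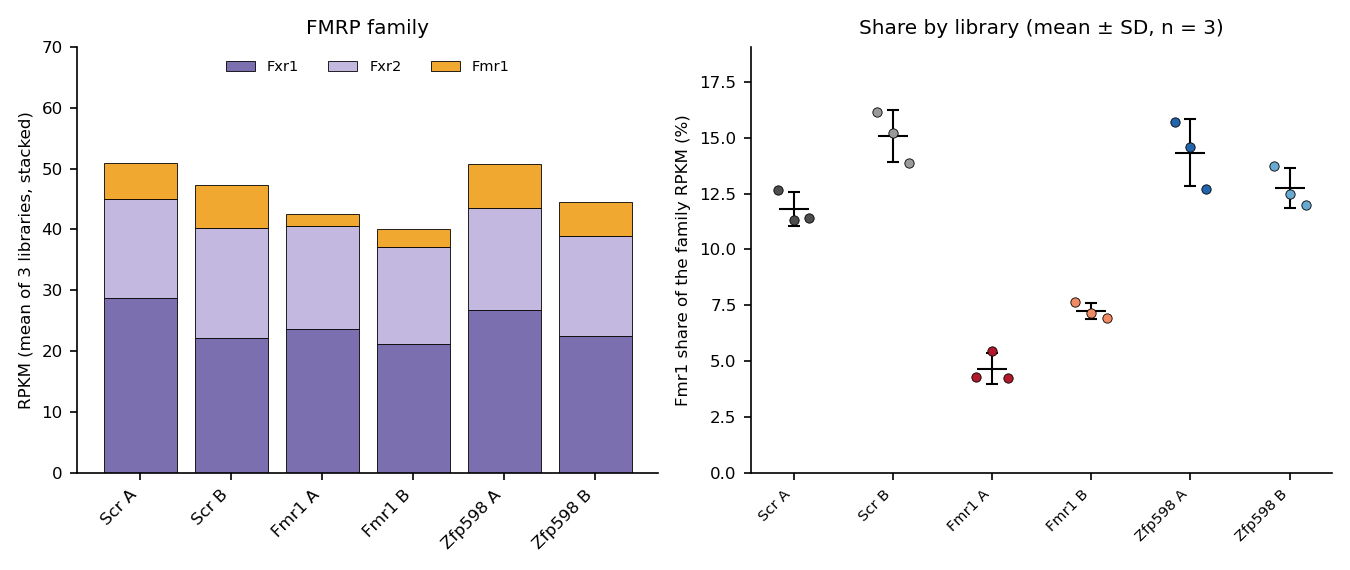
Left, mean RPKM of *Fxr1*, *Fxr2* and *Fmr1* stacked for each siRNA group (n = 3), and right, the share of *Fmr1* in their sum in percent for each library, with the mean ± SD. The share lay between 4.22% and 7.63% in the 6 *Fmr1* KD libraries and between 11.3% and 16.2% in the 6 Scramble KD libraries.

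*Cyfip1*, the partner that joins FMRP to the WAVE complex, rose in *Fmr1* KD. It was 105, 108 and 105 CPM with Scramble siRNA A and 114, 115 and 109 CPM with Scramble siRNA B. With *Fmr1* siRNA A it was 141, 144 and 138 CPM, and with *Fmr1* siRNA B 136, 126 and 137 CPM. Every *Fmr1* KD library was above every Scramble KD library, and the siRNA A libraries were above all 15 others. The rise was 0.33 on the log2 scale (SE 0.0713, adjusted p = 0.00859), or 25.5% (95% interval 13.2% to 39.04%).

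Both *Fmr1* siRNAs gave a rise of *Cyfip1* of their own, 0.41 (siRNA A, adjusted p = 0.000178) and 0.24 (siRNA B, adjusted p = 0.0137), and the difference between them did not pass (-0.17, adjusted p = 0.257). Without the *Fmr1* KD siRNA B library that held the pluripotency genes, the pooled rise was 0.33 (adjusted p = 0.0159) and that of siRNA B 0.24 (adjusted p = 0.0408). The calls were lost without a filter on low counts, where the pooled change was 0.32 (adjusted p = 0.0601) and that of siRNA B 0.23 (adjusted p = 0.143). On the opposite strand *Nipa2*, the gene of a magnesium transporter that was chosen for mention after its values were seen, covers 24.0% of the exon length of *Cyfip1*, and whether the counting used strand is not given in the sources used here. *Nipa2* changed by 0.20 in *Fmr1* KD (adjusted p = 0.396) from a level of 45.8 ± 3.36 CPM in Scramble KD (SD, n = 6), and its part in the counts of *Cyfip1* was not tested.

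*Cyfip2*, the closest relative of *Cyfip1*, behaved differently between the *Fmr1* siRNAs. It was 81.6, 85.8 and 77.4 CPM with *Fmr1* siRNA B, above all 15 other libraries, and 57.5, 75.1 and 55.5 CPM with siRNA A. With Scramble siRNA A and B it ranged from 59.6 to 69.4 CPM and from 55.9 to 63.6 CPM. The rise with siRNA B was 0.43 (adjusted p = 0.0105), the change with siRNA A was -0.04 (adjusted p = 0.847), and the difference between the siRNAs was 0.48 (95% interval 0.13 to 0.82, adjusted p = 0.0462). Pooled over both siRNAs, *Cyfip2* changed by 15.5% (95% interval -1.55% to 35.5%, adjusted p = 0.285). The difference between the siRNAs missed the threshold in 11 of the 18 fits without a single library, with adjusted p between 0.0501 and 0.111, while the rise with siRNA B kept an adjusted p of 0.0267 without the library that held the pluripotency genes.

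Of the other WAVE complex genes, a list that also holds the activator *Rac1*, 9 had counts to test. In the pooled *Fmr1* KD comparison 2 of them fell and none rose, where 6.54% of all genes were called. The median of the list was -0.08 on the log2 scale beside 0.00 over all genes. Taken by siRNA, 2 rose and 3 fell with A (median 0.22), where 23.6% of all genes were called. With B 1 rose and 3 fell (median -0.23), where 22.7% were called. *Abi2*, an adaptor subunit of the complex, was 162, 152 and 163 CPM with Scramble siRNA A and 204, 191 and 186 CPM with Scramble siRNA B, against 104 to 119 CPM in the 6 *Fmr1* KD libraries. It fell by 0.67 (SE 0.0980, adjusted p = 0.000398), a change of -37.1%, and the fall passed with siRNA A (-0.59) and with siRNA B (-0.74). *Wasf3*, which encodes the WAVE3 protein that activates the ARP2/3 actin nucleator, ranged from 50.2 to 58.6 CPM in *Fmr1* KD and from 65.0 to 74.4 CPM in Scramble KD and fell by 0.32 (adjusted p = 0.0122). In the same libraries 1 subunit gene of the complex, *Cyfip1*, rose and 2 others fell. With library totals in place of TMM the fall of *Wasf3* was 0.23 and did not pass (adjusted p = 0.157). Without a filter on low counts it was 0.33 and did not pass (adjusted p = 0.0598). *Wasf3* was also below every Scramble KD library in *Zfp598* KD, at 55.8 to 64.3 CPM, where it was not called.

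*Abi2* was also the gene whose level followed that of *Fmr1* most closely over the 18 libraries, by Pearson's r of log2 CPM among 12110 genes with a mean count of at least 50 (r = 0.952). *Sgcb*, for beta-sarcoglycan, and *Gdap1*, for a mitochondrial fission factor, came next with r = 0.938 and 0.937. The libraries fall into a low and a high range of *Fmr1*, so r was also taken within them. Over the 12 libraries of Scramble KD and *Zfp598* KD, r of *Abi2* with *Fmr1* was 0.863, and over the 6 of *Fmr1* KD it was 0.835. The same values were 0.760 and 0.723 for *Sgcb* and 0.681 and 0.956 for *Gdap1*, so that within *Fmr1* KD *Gdap1* was closer to *Fmr1* than *Abi2* was. For *Fxr1* the most alike genes were *Tmx3*, *Selenok* and *Ralgapa1* (r = 0.838, 0.837 and 0.837), and for *Fxr2* they were *Nle1*, *Snrpc* and *Cyp27b1* (r = 0.777, 0.754 and 0.751). These values describe likeness between genes that share libraries, scaling and groups, and carry no test.

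**Figure D3:**
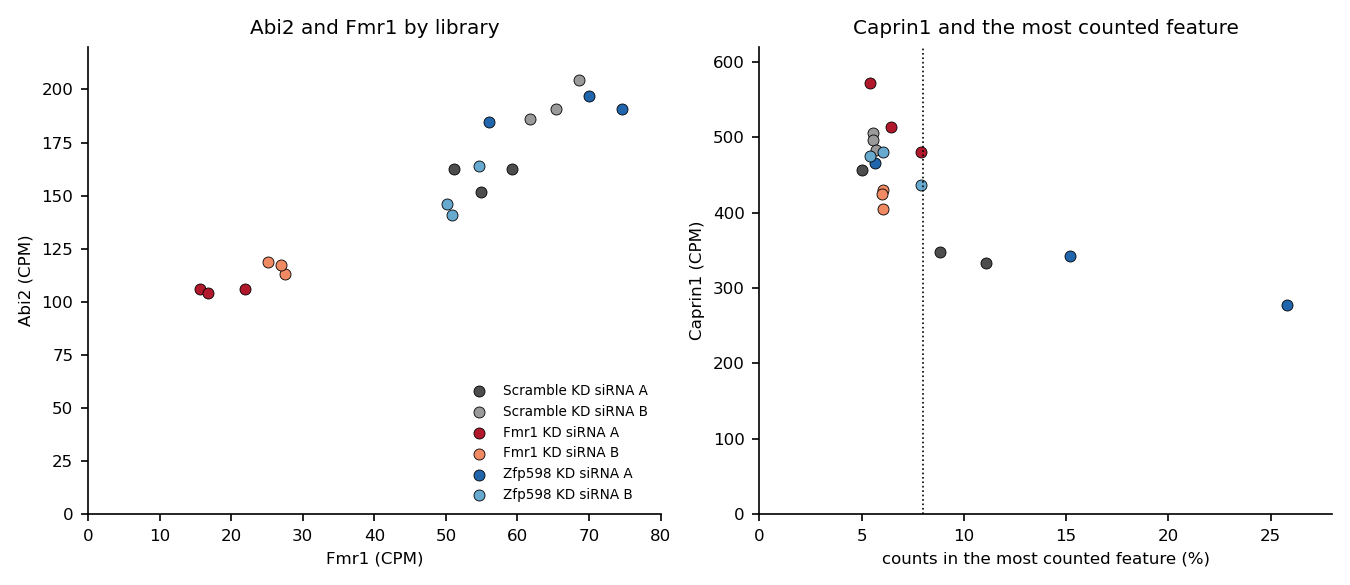
Left, *Abi2* against *Fmr1* in CPM for the 18 libraries, coloured by siRNA group; the 6 *Fmr1* KD libraries sit at 104 to 119 CPM of *Abi2*, below all others. Right, *Caprin1* in CPM against the percentage of counts in the most counted feature, with a dotted line at 8%. That limit was chosen after seeing the data, and the 4 libraries to the right of the line have the 4 lowest *Caprin1* levels.

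Neither NUFIP gene passed in the pooled comparison. *Nufip1*, the scarcest member, was 19.2 to 24.5 CPM in *Fmr1* KD and 19.3 to 23.0 CPM in Scramble KD, a change of 4.71% (95% interval -10.4% to 22.4%, adjusted p = 0.780). *Nufip2* was 161, 156 and 146 CPM with *Fmr1* siRNA A and 159, 155 and 158 CPM with siRNA B. Those values lay below the 197, 189 and 189 CPM of Scramble siRNA B but within the 141, 167 and 151 CPM of Scramble siRNA A. The Scramble siRNAs differed by 0.33 (adjusted p = 0.0265), and the pooled change of *Nufip2* was -9.51% (95% interval -22.6% to 5.72%, adjusted p = 0.474). Against Scramble siRNA B the change of -0.28 with *Fmr1* siRNA B came close to the threshold (adjusted p = 0.0519). It passed with DESeq2 (-0.29, adjusted p = 0.0325) and in edgeR without a filter on low counts (-0.29, adjusted p = 0.0338). In 17 of 25 alternative settings it did not pass. Leaving out the 4 libraries with over 8% of the most counted feature put the pooled change of *Nufip2* past it (-0.25, adjusted p = 0.0266). With siRNA B the change was then -0.28, and no library of *Fmr1* siRNA B or Scramble siRNA B was left out. From the pooled comparison the exclusion takes out Scramble KD siRNA A replicates 1 and 3 (141 and 151 CPM). The remaining controls of the pooled comparison are thus mostly of Scramble siRNA B, where *Nufip2* was higher.

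The 10 tested genes that work with NUFIP1 in box C/D snoRNP assembly, among them the core proteins fibrillarin, NOP56 and NOP58, gave 0 calls in the pooled *Fmr1* KD comparison with edgeR. At an unadjusted p under 0.05 the count was also 0, and DESeq2 called 0. Their median change was 0.08 on the log2 scale beside 0.00 over all genes. Taken by siRNA, 3 of the 10 rose and none fell with A (median 0.19), where 23.6% of all genes were called, and 1 fell and none rose with B (median -0.10), where 22.7% were called. The difference between the changes with the siRNAs passed for 3, all with a lower change for B (median -0.26), where 21.8% of all genes passed.

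The changes of *Caprin1*, *G3bp1* and *G3bp2*, which encode the stress granule core, differed between the *Fmr1* siRNAs and did not pass in the pooled comparison. Pooled, *Caprin1* changed by 7.76% (95% interval -11.9% to 31.9%, adjusted p = 0.715), *G3bp1* by 10.6% (95% interval -3.71% to 27.1%, adjusted p = 0.407) and *G3bp2* by 11.5% (95% interval -4.97% to 30.8%, adjusted p = 0.444). With siRNA A all 3 rose against Scramble siRNA A, and for siRNA B none passed against Scramble siRNA B. The test of the difference between the siRNAs passed for all 3, in a comparison where 21.8% of all genes were called and 4 of the 10 members. It compares the changes, so it takes in the gap between the Scramble siRNAs. That gap, B against A, was 0.39 for *Caprin1*, 0.20 for *G3bp1* and -0.16 for *G3bp2*. The difference thus depends on which Scramble siRNA each *Fmr1* siRNA is set against. Of the 14 tested neuroblastoma markers, 10 were lower with *Fmr1* siRNA A against Scramble siRNA A, where 23.6% of all genes were called. With siRNA B 7 were higher against Scramble siRNA B, where 22.7% were called. The part of these markers in the differences between siRNAs was not tested.

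**Figure D4:**
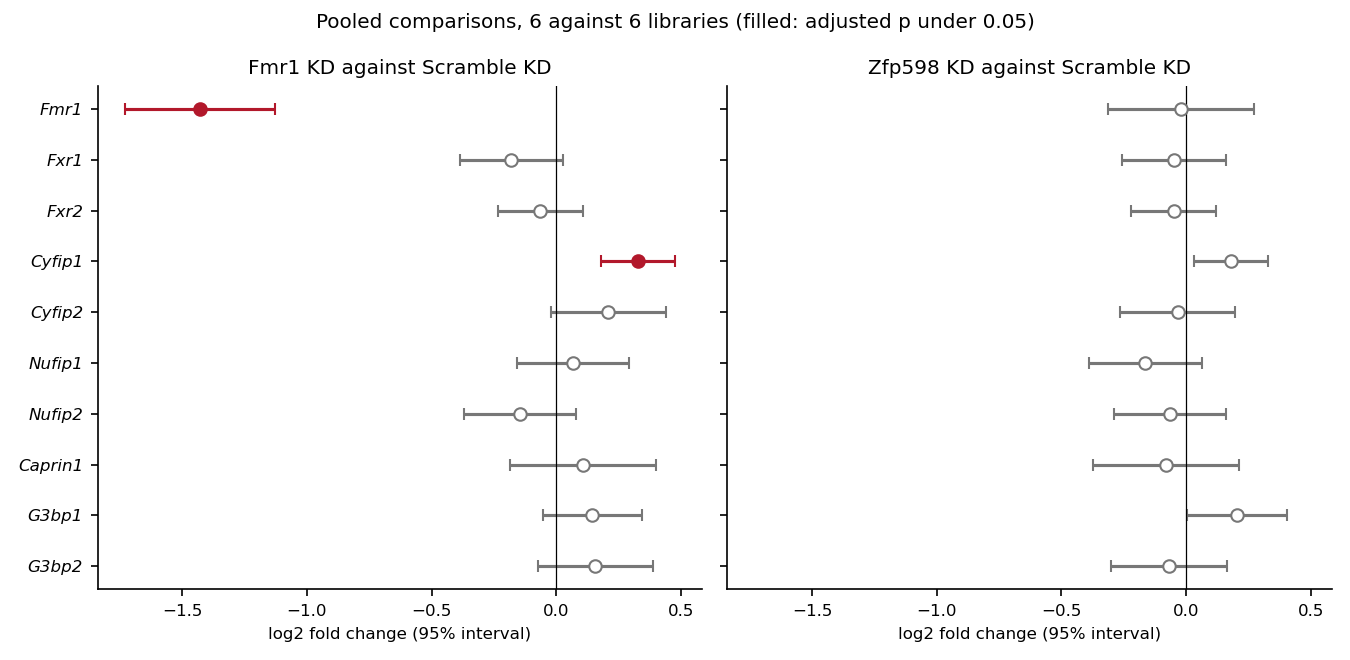
Log2 fold change of each member in *Fmr1* KD (left) and *Zfp598* KD (right) against Scramble KD, with 95% intervals; filled points passed at an adjusted p under 0.05. *Fmr1* (-1.43) and *Cyfip1* (0.33) are the filled points, both in *Fmr1* KD, and the *Zfp598* KD panel has none.

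*Caprin1* was 514, 572 and 481 CPM with *Fmr1* siRNA A and 429.9, 425 and 404 CPM with *Fmr1* siRNA B. With Scramble siRNA A it was 333, 456 and 348 CPM, and with Scramble siRNA B 506, 497 and 483 CPM. The *Fmr1* siRNA A libraries lay above all of Scramble siRNA A and the *Fmr1* siRNA B libraries below all of Scramble siRNA B. Against the Scramble siRNA of the other letter the ranges overlapped. The means were then 522 against 495 CPM for *Fmr1* siRNA A and 420 against 379 CPM for *Fmr1* siRNA B. The letters pair nothing beyond the name, so the opposite directions depend on this matching. The change was 0.46 for siRNA A (adjusted p = 0.0175) and -0.24 for siRNA B (adjusted p = 0.231), and the difference was -0.70 (95% interval -1.10 to -0.30, adjusted p = 0.0120). The rise with siRNA A rested on single libraries, since it missed the threshold without *Fmr1* KD siRNA A replicate 2 or without Scramble KD siRNA A replicate 1 or 3 (adjusted p = 0.0807, 0.0917 and 0.0792).

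*Caprin1* was also lower where the most counted feature took more of the counts (Pearson's r = -0.863 on the log2 scale over the 18 libraries). The 4 libraries in which that feature took over 8% of the counts, all with siRNA A, had the 4 lowest levels of the 18. They were at 278, 333, 342 and 348 CPM against 404 CPM or more in the other 14. The limit was chosen after seeing the data. Just under it were *Fmr1* KD siRNA A replicate 3 (7.93%) and *Zfp598* KD siRNA B replicate 3 (7.92%), with 481 and 437 CPM of *Caprin1*. *Nufip2* showed a weaker form of the same, with 118 to 151 CPM in those 4 libraries and 146 to 197 CPM in the others. Without the 4 libraries the change of *Caprin1* was 0.19 with *Fmr1* siRNA A (adjusted p = 0.175), -0.23 with siRNA B (adjusted p = 0.0108) and 0.12 between the Scramble siRNAs (adjusted p = 0.487). The rise of *G3bp2* with siRNA A was then 0.21 (adjusted p = 0.0976) and the difference between the *Fmr1* siRNAs -0.24 (adjusted p = 0.118), while for *Fxr1* that difference passed (0.35, adjusted p = 0.0160). In these fits Scramble siRNA A and *Zfp598* siRNA A keep 1 library each, which is assumed to vary like the other groups.

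*G3bp2* was 183, 188 and 177 CPM with *Fmr1* siRNA A, above all 15 other libraries, which ranged from 123 to 160.2 CPM. With *Fmr1* siRNA B it was 125, 133 and 128 CPM against 135, 129 and 132 CPM with Scramble siRNA B. The rise with siRNA A was 0.31 (adjusted p = 0.0100), and the difference between the siRNAs was -0.35 (adjusted p = 0.0412). *G3bp1* was 440, 449 and 408 CPM with *Fmr1* siRNA A against 333, 343 and 366 CPM with Scramble siRNA A, a rise of 0.32 (adjusted p = 0.00286). With *Fmr1* siRNA B it was 389, 396 and 397 CPM against 410, 391 and 398 CPM with Scramble siRNA B (-0.02, adjusted p = 0.866), and the difference between the siRNAs was -0.34 (adjusted p = 0.0212). Without the library that held the pluripotency genes the difference was -0.32 for *G3bp1* (adjusted p = 0.0488) and -0.32 for *G3bp2* (adjusted p = 0.0911), and for *Caprin1* it was -0.71 (adjusted p = 0.0221). Over the 18 fits without a single library the difference missed the threshold 14 times for *G3bp2* and 4 times for *G3bp1*, with adjusted p up to 0.0991 and 0.0662.

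A list of 17 tested genes of the stress granule network around these proteins also differed between siRNAs. In the pooled *Fmr1* KD comparison 1 of them passed, *Fam120a*, near the 6.54% called over all genes, and the list median was 0.08. Against Scramble siRNA A, *Fmr1* siRNA A gave 7 rises and 1 fall with a list median of 0.26, where 23.6% of all genes were called. Against Scramble siRNA B, *Fmr1* siRNA B gave 4 falls, near the share of 22.7% over all genes, with a list median of -0.15. The difference between these changes passed for 9 of the 17, all with a lower change for siRNA B, where 21.8% of all genes passed. Its list median was -0.49 beside -0.01 over all genes. Between the Scramble siRNAs 8 of the 17 were higher with B and none lower, where 22.7% of all genes passed, with a list median of 0.31. *Fam120a*, which encodes an RNA-binding scaffold protein, fell with both *Fmr1* siRNAs. It was 148 to 161 CPM in *Fmr1* KD and 201 to 225.3 CPM in Scramble KD, and it fell by 0.48 and 0.46 with the *Fmr1* siRNAs A and B and by 0.47 pooled (SE 0.0661, adjusted p = 0.000282).

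Among 21 tested genes for proteins of FMRP ribonucleoproteins and transport granules, 2 fell in the pooled *Fmr1* KD comparison and none rose, near the 6.54% called over all genes, with a list median of -0.01. By siRNA there were 3 rises and 4 falls with A (median -0.13), where 23.6% of all genes were called. With B there were 3 rises and 3 falls (median 0.02), where 22.7% were called. *Dicer1*, the ribonuclease that cuts microRNA precursors, was 145 to 159 CPM in *Fmr1* KD and 188 to 209 CPM in Scramble KD, with no overlap, and it fell by 0.36 (adjusted p = 0.00600). With library totals in place of TMM the fall of *Dicer1* was 0.27 and did not pass (adjusted p = 0.178). *Dicer1* was also called lower with *Zfp598* siRNA A, at 158 to 178 CPM against 191 to 205 CPM with Scramble siRNA A. With *Zfp598* siRNA B and in the pooled *Zfp598* KD comparison it was not called. *Kif5b*, a kinesin heavy chain that carries RNA granules, was 150.1 to 202 CPM in *Fmr1* KD and 214 to 275.5 CPM in Scramble KD and fell by 0.38 (adjusted p = 0.0373). Its call was lost in 11 of 18 fits without a single library, with adjusted p between 0.0503 and 0.0865.

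**Figure D5:**
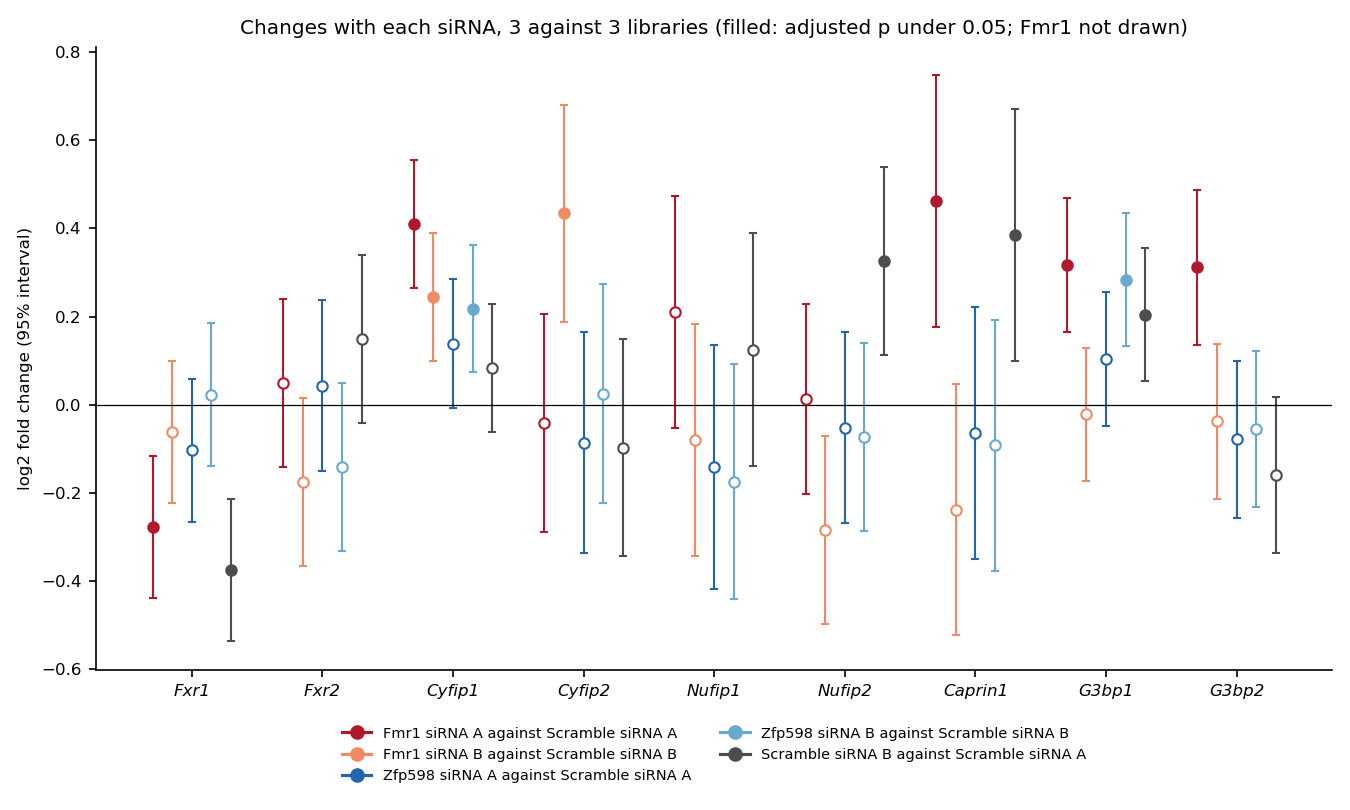
Log2 fold change with 95% interval for 9 members (horizontal axis, *Fmr1* left out) with each targeting siRNA against the Scramble siRNA of the same letter and between the Scramble siRNAs; filled points passed at an adjusted p under 0.05. *Cyfip1* passed with both *Fmr1* siRNAs (0.41 and 0.24), while *Caprin1*, *G3bp1* and *G3bp2* passed with *Fmr1* siRNA A alone of the pair and *Cyfip2* with siRNA B alone, differences that were themselves tested.

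In *Zfp598* KD against Scramble KD, again 6 libraries against 6 and with the same control libraries, 0 of the 10 members passed in edgeR, where 1.96% of all genes were called. At an unadjusted p under 0.05 there were 2, *Cyfip1* and *G3bp1*, and DESeq2 called 1, *Cyfip1* (0.19, adjusted p = 0.0415). The shares over all genes are those of the adjusted edgeR call. Counts at an unadjusted p or by DESeq2, here and below, therefore have no such share beside them. *Fmr1* changed by -1.31% (95% interval -19.4% to 20.9%, adjusted p = 0.962). The intervals of the other members lay within -23.7% and 32.3%, so rises or falls of 2-fold lie outside all 10 of them.

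*Cyfip1* was 123, 110.4 and 116 CPM with *Zfp598* siRNA A and 125, 134 and 133 CPM with *Zfp598* siRNA B. Each set lay above the Scramble libraries of its own letter, and the pooled change was 13.3% (95% interval 2.21% to 25.6%, adjusted p = 0.182). With siRNA B it rose by 0.22 (adjusted p = 0.0241), a call that was lost without Scramble KD siRNA B replicate 3 or without *Zfp598* KD siRNA B replicate 2 or 3 (adjusted p between 0.0654 and 0.0782). The overlapping gene *Nipa2* was 83.8, 72.4 and 66.6 CPM in the same 3 libraries against 41.2 to 46.7 CPM with Scramble siRNA B, a rise of 0.77 (adjusted p = 4.59e-06). Compared directly, *Fmr1* KD and *Zfp598* KD did not differ in *Cyfip1* beyond the threshold (10.8%, 95% interval -0.0577% to 22.7%, adjusted p = 0.243), and in that comparison 1 of the 10 members passed, *Fmr1*, which was lower by 1.41 in *Fmr1* KD, where 5.39% of all genes were called. All 3 pooled comparisons share libraries, so their values are not independent of each other.

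Taken by siRNA, *Zfp598* siRNA B gave 3 calls among the members where 26.8% of all genes were called, and siRNA A gave 0 where 11.9% were called. For siRNA A the count at an unadjusted p under 0.05 was 1, *Fmr1*, and DESeq2 called 0. *G3bp1* was 470.5, 510.1 and 480 CPM with *Zfp598* siRNA B, above all 15 other libraries, and rose by 0.28 (adjusted p = 0.00617). Its share of the summed RPKM of *G3bp1* and *G3bp2* was 78.2% ± 0.207 there and 74.0% ± 0.0610 with Scramble siRNA B (SD, n = 3 each). The difference in the effect on *G3bp1* between the *Zfp598* siRNAs did not pass (0.18, adjusted p = 0.227).

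*Fmr1* itself differed between the *Zfp598* siRNAs, the single member of 10 that did, where 21.9% of all genes were called. It was 74.7, 69.96 and 56.0 CPM with *Zfp598* siRNA A and 54.6, 50.9 and 50.2 CPM with *Zfp598* siRNA B. Its change was 0.29 with siRNA A against Scramble siRNA A (adjusted p = 0.108) and -0.33 with siRNA B against Scramble siRNA B (adjusted p = 0.0360). The difference was -0.62 (95% interval -0.96 to -0.28, adjusted p = 0.00882). The fall with siRNA B was lost without any 1 of the 6 libraries in it (adjusted p between 0.0517 and 0.132), and without *Zfp598* KD siRNA A replicate 3, where the most counted feature took 25.8% of the counts, *Fmr1* with siRNA A was higher by 0.39 (adjusted p = 0.0284). With library totals in place of TMM the difference was -0.42 (adjusted p = 0.188), and that of *G3bp1* passed (0.40, adjusted p = 0.0289). *Abi2* was 185 to 197 CPM and 141 to 164 CPM with these siRNAs. Its change against the Scramble siRNA of the same letter differed between them by -0.63 (adjusted p = 0.000173).

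Of the partner lists in *Zfp598* KD, where 1.96% of all genes were called, the WAVE complex list gave 1 rise, *Rac1*. *Rac1* encodes the GTPase that switches the complex on through CYFIP and is not a subunit, and no subunit gene of the list passed. *Rac1* was 218 to 275 CPM in *Zfp598* KD and 174 to 209 CPM in Scramble KD, with no overlap, and rose by 0.37 (adjusted p = 0.0341). The call of *Rac1* was lost in 8 of 18 fits without a single library, with adjusted p between 0.0596 and 0.0956. Among the FMRP ribonucleoprotein genes *Ago2* fell by 0.52 (adjusted p = 0.0188) and *Ago1* rose by 0.54 (adjusted p = 0.0423), both Argonautes that carry microRNAs. *Ago2* was 458 to 678.5 CPM in *Zfp598* KD and 671 to 891 CPM in Scramble KD, and *Ago1* was 83.0 to 109 CPM and 46.2 to 88.0 CPM. *Ago1* passed with *Zfp598* siRNA B (1.01) and not with siRNA A (0.13), and the difference between those effects was 0.88 (adjusted p = 0.000104). *Ago1* was also lower with Scramble siRNA B than with Scramble siRNA A by 0.67, and its pooled call was lost in 13 of 18 fits without a single library, with adjusted p between 0.0517 and 0.101.

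The stress granule network gave 0 calls in *Zfp598* KD with edgeR, 3 at an unadjusted p under 0.05 and 0 with DESeq2, and the box C/D snoRNP list gave 0, 1 and 0. The medians of the 4 lists were 0.07 (WAVE complex), -0.17 (stress granule network), 0.06 (FMRP ribonucleoproteins) and 0.004 (box C/D snoRNP) beside 0.01 over all genes.

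The comparison between the Scramble siRNAs measured how far the members differ with no target. Besides *Fxr1* and *Nufip2*, *Caprin1* was higher with Scramble siRNA B by 0.39 (adjusted p = 0.0475) and *G3bp1* by 0.20 (adjusted p = 0.0473), calls that were lost in 15 and 16 of the 18 fits without a single library (adjusted p up to 0.202 and 0.179). For *Fmr1* the difference was 0.24 (95% interval 0.01 to 0.48, adjusted p = 0.130) and for *Cyfip1* 0.08 (95% interval -0.06 to 0.23, adjusted p = 0.425). The summed level of the neuroblastoma markers was 2376 to 2550 CPM with Scramble siRNA A and 1583 to 1781 CPM with B. Of the 14 tested markers 8 were lower with B and 1 was higher, where 22.7% of all genes were called. Their part in the differences of the members was not tested.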

How the data were processed

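RNA-seq was analysed from 18 libraries of N2A cells in 6 groups of 3, with condition, siRNA letter and replicate taken from the sample labels. The authors used TrimGalore for trimming, STAR for alignment to GRCm39 and featureCounts for counting on exons, and the deposited values are whole-number counts per gene, not normalized. The annotation release, the strand setting and the handling of reads with several alignments are not given in the sources used here, so counts of overlapping genes are uncertain. Symbols, coordinates, exon lengths and coding sequences came from GENCODE M39 on GRCm39, which has an entry for 54749 of the 55414 genes (98.8%).

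Counts were tested with edgeR 4.0.16 in R 4.3.3 (glmQLFit and glmQLFTest, two-sided, TMM library sizes), on 17901 genes kept by filterByExpr (minimum count 10, minimum total 15). A model with condition as its term gave the pooled comparisons, as the study pooled both siRNAs, and a model with 6 groups gave the comparisons by siRNA and their differences. The Benjamini-Hochberg adjustment ran over all tested genes, and intervals are 95% intervals of the fit. The fits were tested on simulated data. The simulation held no difference between the siRNAs of a condition, so it cannot show how such differences affect the pooled tests. CPM values use TMM library sizes, RPKM values divide them by the union of exons, and likeness was Pearson's r of log2 CPM with a pseudocount of 0.5. Depth was 7674724 to 15414590 counts per library, and intervals cover the spread between libraries. Alternatives were DESeq2 1.42.0, its size factors in edgeR, library totals, no filter, a replicate block, a letter block, counts summed per siRNA, and leaving out libraries or the most counted feature. Leaving out the libraries with over 8% of that feature was chosen after seeing the data.

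The members and the gene lists were chosen with earlier results of these data known. The genes named are all members, *Zfp598*, up to 3 rises and 3 falls per list among genes that passed in a pooled comparison with Scramble KD, and the 3 genes most like *Fmr1*, *Fxr1* and *Fxr2*. Marker genes, *Nipa2* and *Gm5913* stand outside that rule, and *Zfp42*, *Pou5f1* and *Sox2* were picked from the marker list after their values were seen. The sequences of the siRNAs were not used here.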

Additional observations from a re-analysis of the deposited data

Results flagged for a closer look

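The effect of *Fmr1* KD differed between the siRNAs, in edgeR's test of the difference, for 4 of the 10 members, where 21.8% of all genes passed. Given as siRNA B minus siRNA A on the log2 scale, the difference was 0.48 for *Cyfip2* (adjusted p = 0.0462), -0.70 for *Caprin1* (adjusted p = 0.0120), -0.34 for *G3bp1* (adjusted p = 0.0212) and -0.35 for *G3bp2* (adjusted p = 0.0412). The effect of *Zfp598* KD differed between siRNAs for *Fmr1* by -0.62 (adjusted p = 0.00882), where 21.9% of all genes passed. Each of these differences takes in the difference between the Scramble siRNAs, which was itself past the threshold for *Caprin1* and *G3bp1*.

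A single library lay far from the others of its condition. *G3bp2* was 160.2 CPM in *Zfp598* KD siRNA A replicate 1, the highest of 6, and its gap to the next library was 0.702 of the range. This was the single case among 30 sets of 6 libraries, and chance alone gives about 1 in 20.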

How the results depend on the processing

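The 100 results, 10 members in 10 comparisons, had 2560 values under the alternative settings. Among these no call changed direction, 107 lost the call and 16 gained it, and in 73 a change without a call changed sign. The call of *Fmr1* in *Fmr1* KD was lost with counts summed per siRNA (2 against 2), where 0 of the 10 members passed in *Fmr1* KD, 0 in *Fmr1* KD against *Zfp598* KD, and 0 of all genes in both; *Fmr1* then fell by 1.42 and 1.43, and 1 member had an unadjusted p under 0.05 in each. Without a filter on low counts 1 member passed in *Fmr1* KD and 2 differed between its siRNAs. DESeq2 called 1 member in *Zfp598* KD. Library totals moved the median log2 change of all genes from 0.00 to 0.09 in *Fmr1* KD, from -0.01 to 0.14 in *Fmr1* KD against *Zfp598* KD, from 0.01 to 0.11 with *Fmr1* siRNA A, from 0.01 to -0.16 with *Zfp598* siRNA A and from -0.02 to 0.18 in the difference between *Zfp598* siRNAs, and the calls in *Fmr1* KD from 489 higher and 681 lower to 636 and 297, and in *Zfp598* KD from 164 and 187 to 74 and 233. With library totals, 1 member passed with *Zfp598* siRNA B, 0 between the Scramble siRNAs and 0 in the difference between *Fmr1* siRNAs, and *Caprin1* and *Fxr1* lost their calls with *Fmr1* siRNA A (adjusted p = 0.0502 and 0.316). Leaving out the 4 libraries over 8% of the most counted feature gave 5 calls with *Fmr1* siRNA B and 2 between the Scramble siRNAs. Requiring over 2-fold as well left 1 in *Fmr1* KD, 1 each with *Fmr1* siRNA A and B, and 0 with *Zfp598* siRNA B, between the Scramble siRNAs and in both differences between siRNAs.

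Without single libraries the number of members called stayed at 2 in *Fmr1* KD, 0 in *Zfp598* KD, 1 in *Fmr1* KD against *Zfp598* KD and 1 in the difference between *Zfp598* siRNAs. It was 5 to 6 with *Fmr1* siRNA A, 3 to 4 with *Fmr1* siRNA B, 0 to 1 with *Zfp598* siRNA A, 1 to 3 with *Zfp598* siRNA B, and 1 to 4 both between the Scramble siRNAs and in the difference between *Fmr1* siRNAs. *Nufip2* between the Scramble siRNAs lost its call in 5 of these fits, those without a Scramble library other than siRNA A replicate 2 (adjusted p between 0.0578 and 0.124).

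The labels number the replicates without saying that the numbers pair the libraries. Deviations of same-numbered libraries correlated between -0.399 and 0.338 over 45 pairs (median 0.0474), and 16 were over 0.1. Over 90 pairs with different numbers the range was -0.427 to 0.563 (median -0.0245), and 11 were over 0.1. With a replicate block *Nufip2* with *Fmr1* siRNA B was called (adjusted p = 0.0366), *Rac1* and *Ago1* in *Zfp598* KD were not (adjusted p = 0.0551 and 0.0657), and the counts of members stayed within 1.5 times (2 in *Fmr1* KD, 0 in *Zfp598* KD).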
